A study of Solanum lycopersicum with 6 samples.

Results

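DFR and its neighbours in the flavonoid pathway were examined in fruit of drought-stressed and control tomato plants. The genes were taken from the platform annotation by symbol, as DFR, any PAL, CHS, 4CL or F3H gene, and ANT1. The search returned 4 genes with 1 probe set each, DFR, ANT1, CHS1 and CHS2, of 10101 probe sets tested and 803 genes with a symbol. It returned 0 probe sets under a PAL, 4CL or F3H symbol. The group was chosen by the value of DFR, which passed the test between drought and control in these same arrays (limma adjusted p = 0.0443). The differences of all 4 genes between drought and control are therefore given as descriptions, without a test.

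The fruits came from Micro-Tom, a dwarf tomato cultivar that carries a mutation in brassinosteroid synthesis, and were labelled mature green, although the design text speaks of ripening plants. In the drought group, 3 arrays were hybridised with RNA from plants that received a fertilizer solution, diluted 500-fold, once a week. In the control group, 3 arrays came from plants under normal conditions given fertilizer at the same dilution. Water and nutrient supply may thus have differed together, and their effects cannot be told apart here. All plants shared a greenhouse set to 25 °C in daytime and to 20 °C later, and fruits were taken 30 to 40 days after flowering. The labels do not tell whether the samples of a group are different plants, so p-values cover the spread among these samples alone, which may be technical.

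Flavonoids are made from phenylalanine. The general phenylpropanoid steps give an activated coumaric acid, chalcone synthase turns it into naringenin chalcone, and later enzymes convert the product into flavonols or, through dihydroflavonol reductase, into anthocyanins. In tomato, naringenin chalcone and flavonols gather mainly in the fruit skin, while fruit of most cultivated tomatoes makes little anthocyanin. The anthocyanin branch is switched on by MYB and bHLH transcription factors, and in vegetative tissue it is a known mark of light, cold, nutrient and water stress.

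Most probe sets hardly differed between arrays in the deposited table. Of the tested probe sets, 75.71% stayed within 0.001 log2 units over all 6 arrays, with a median range of 0.000129, and none of 69 probe sets for bacterial and phage spike-ins ranged over more than 0.000467. A difference on this scale may therefore not equal a fold change as a scanner measures it. Control replicate 3 stood nearer the drought arrays (Pearson's r across probe sets 0.9990 to 0.9992) than the other controls (0.9960 and 0.9970). The labelled tissue was checked on its markers. The 5 found of the photosynthesis list (CAB4, CAB5, CAB6A, PSBO and the photosystem I gene psaD) lay between the 35.9th and the 93.59th percentile of an array's values. The 9 probe sets found for ripe fruit spread as widely. PG2, the polygalacturonase gene, lay at 6.465 to 6.475 and RIN at 6.029 to 14.75. ACS4 lay at 26.09 to 26.25, NOR at 27.02 to 28.03 and E8 at 34.59 to 38.8. Psy1 lay at 13.76 to 13.91 for its dimmest probe set and up to 85.44 for its brightest, and LOXB reached 97.34. A percentile describes a probe set's signal and is no measure of abundance between genes. The check therefore could not tell green from ripe fruit.

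The 4 genes differed widely in how much they varied between arrays. CHS1 varied by 0.182 log2 units over the 6 arrays, a range that 169 of the 10101 probe sets reached. DFR varied by 0.128, a range that 218 reached, and CHS2 by 0.0138. ANT1 varied by 3.92e-06, less than the largest spike-in range, and 634 probe sets varied no more than it did.

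**Figure D1:**
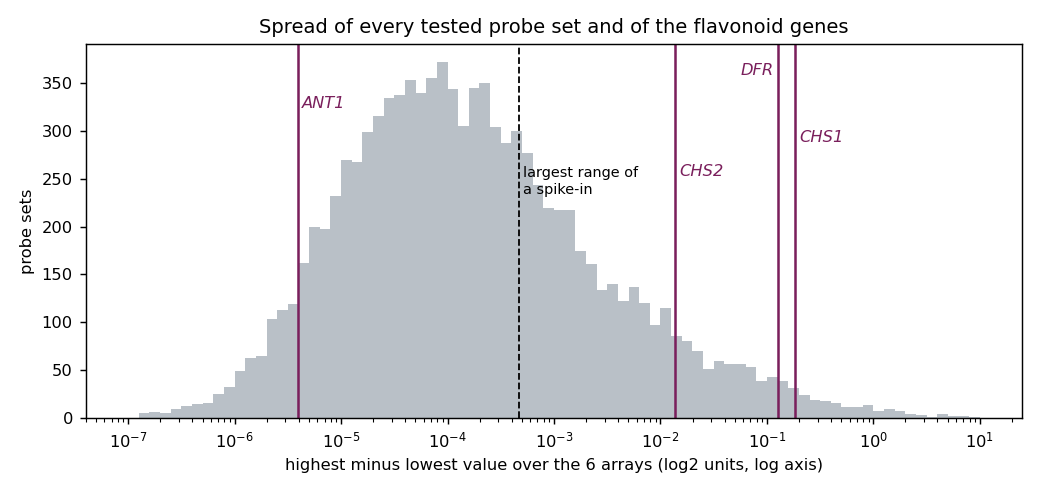
Number of tested probe sets (vertical axis) by the range of their value over the 6 arrays (horizontal axis, log2 units on a log axis). Vertical lines mark ANT1 at 3.92e-06, CHS2 at 0.0138, DFR at 0.128 and CHS1 at 0.182, and the dashed line marks the largest spike-in range of 0.000467.

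DFR encodes dihydroflavonol reductase, the enzyme that commits dihydroflavonols to anthocyanins, and a tomato mutant that lacks anthocyanin is known to be defective in it. The gene (NCBI gene ID 544150) stood at 6.266, 6.261 and 6.270 log2 units in the drought fruits, against 6.155, 6.142 and 6.172 in the control fruits. All 3 drought arrays lay above all 3 control arrays, as in 20.5% of all tested probe sets. The gap of 0.0896 between the lowest drought and the highest control value was wider than the spread within the drought arrays (0.00886) or the control arrays (0.0299). Since this contrast chose DFR, the separation and the gap are descriptions and are not read as a result. The means were 6.27 ± 0.0044 in drought and 6.16 ± 0.015 in control (SD, n = 3 each). The difference was 0.11 ± 0.0086 log2 units (SE), which would be 1.08-fold if the deposited scale is a true log2 scale. In whole fruit tissue, more cells that express a gene and more RNA per cell cannot be told apart.

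Control replicate 3, the control nearest the drought arrays over all probe sets, was also the highest control for DFR. Without it the difference was 0.12. Over all arrays left out singly it ran from 0.10 to 0.12. The direction of DFR was the same with quantile normalisation (0.11) and with the array medians set equal (0.10). DFR did not pass under the first (limma adjusted p = 0.0521). It passed under the second (limma adjusted p = 0.0201), where 9406 of all probe sets passed. Since this contrast chose DFR and its groups lay 0.0896 apart, the unchanged direction is a description and supports nothing. Its signal was low, between the 12.9th and the 16.71th percentile of the arrays' values, so a filter that drops the dimmest 30% of probe sets also drops DFR.

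**Figure D2:**
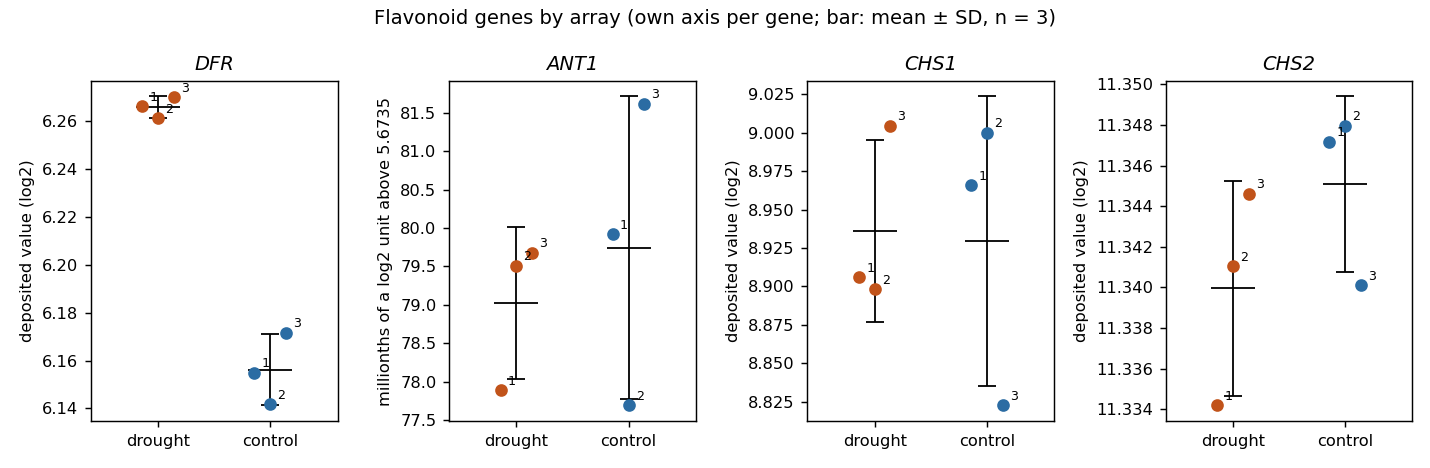
Deposited values (log2 units, vertical axis, a separate axis for each gene) of DFR, ANT1, CHS1 and CHS2 in the 3 drought and 3 control arrays, with the mean ± SD and the replicate number beside each point. DFR is separated by group, with drought at 6.261 to 6.270 and control at 6.142 to 6.172, and the other genes overlap. The ANT1 axis is in millionths of a log2 unit.

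Of the 4 genes, DFR alone passed the limma threshold, a count of 1 beside a background of 0.762% of all tested probe sets (77 of 10101), or 0.525% in the upward direction. Since the same contrast chose DFR, nothing is read from this count. The count was 0 without control replicate 1, control replicate 2 or any 1 drought array, and 1 without control replicate 3. DFR had the largest absolute difference of the 77 called probe sets, whose median was 0.000607. A difference at least as large occurred in 151 tested probe sets, DFR included, and in 39 of those with a symbol. At the threshold itself, PME2.1, a pectin methylesterase gene (-0.014, adjusted p = 0.0482), and HO2, a heme oxygenase gene (4.3e-05, adjusted p = 0.0495), were the nearest named probe sets inside. LOC544156 (2.0e-05, adjusted p = 0.0504) and PRO2, the gene of a proline synthesis enzyme (3.9e-05, adjusted p = 0.0506), were the nearest outside, in limma's test over all probe sets.

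ANT1 encodes an R2R3-type MYB activator of anthocyanin genes, known for purple fruit in tomatoes that overexpress it or carry an allele from a wild relative. The gene (NCBI gene ID 543897) gave 5.673578, 5.673580 and 5.673580 log2 units in drought fruits, and 5.673580, 5.673578 and 5.673582 in control fruits. The groups overlapped, and the difference of -7.2e-07 ± 2.4e-06 (SE) was smaller than its error. ANT1 lay at the 0.5445th percentile of every array's values, among the lowest signals of the table, so these arrays do not show whether the transcript was present.

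CHS1 and CHS2 encode chalcone synthases, the entry step of the flavonoid branch, and both are known from tomato fruit skin. CHS1 (NCBI gene ID 778294) stood at 8.9059, 8.8983 and 9.0046 log2 units in drought fruits, against 8.9660, 8.9999 and 8.8225 in control fruits. The lowest value was control replicate 3 and the highest drought replicate 3, so the spread within each group covered most of the spread overall. The means were 8.94 ± 0.059 in drought and 8.93 ± 0.094 in control (SD, n = 3 each), and the difference of 0.0068 ± 0.061 (SE) was a small part of its error. Its sign depended on single arrays, at -0.047 without control replicate 3, -0.027 without drought replicate 3 and 0.042 without control replicate 2.

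CHS2 (NCBI gene ID 778295) stood at 11.334, 11.341 and 11.345 log2 units in drought fruits, against 11.347, 11.348 and 11.340 in control fruits. Control replicates 1 and 2 lay above all drought arrays and control replicate 3 lay below drought replicates 2 and 3. The means were 11.340 ± 0.0053 in drought and 11.345 ± 0.0043 in control (SD, n = 3 each). The difference was -0.0051 ± 0.0038 (SE), and it was negative without any 1 array (-0.0076 to -0.0023). CHS1 and CHS2 are related copies, and how far each probe set also binds the transcript of the other was not tested.

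The 3 genes other than DFR had overlapping groups, beside 34.8% of all tested probe sets whose groups did not overlap (20.5% higher and 14.3% lower in drought).

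CHS1 and CHS2 tended to be high and low on the same arrays. Both had control replicates 1 and 2 and drought replicate 3 as their 3 highest arrays. Across the 6 arrays Pearson's r was 0.67 (exact permutation p = 0.157) and Spearman's rho 0.66 (exact permutation p = 0.175), so the relation missed the threshold. Without the 2 arrays farthest from the median of CHS1, control replicate 3 and drought replicate 3, r was 0.85. ANT1 gave r = -0.56 and rho = -0.37 with CHS1 (exact permutation p = 0.249 and 0.497), and r = 0.023 and rho = -0.20 with CHS2 (exact permutation p = 0.961 and 0.714). Without the 2 arrays farthest from the median of ANT1, control replicates 2 and 3, its r was 0.58 with CHS1 and 0.96 with CHS2, so these values rest on those 2 arrays. DFR was left out of these relations because its values fall into separate clusters by group.

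The green-tissue markers ran opposite to CHS1 across the arrays, a relation looked at after the values had been seen. The summed level of the 5 markers (2 to the power of each value, added) was 5891.1 to 5957.4 in drought and 5913.1 to 5977.4 in control, so the groups overlapped. On the log2 scale this sum correlated with CHS1 at r = -0.95 (exact permutation p = 0.0125) and rho = -0.89 (exact permutation p = 0.0333). With the 2 arrays farthest from the median of the sum left out, r was -0.90. CHS2 gave r = -0.73 (exact permutation p = 0.0986) and rho = -0.71 (exact permutation p = 0.136). Benjamini-Hochberg adjustment covered 5 relations, those among ANT1, CHS1 and CHS2 and those of the sum with CHS1 and CHS2. It gave 0.0625 for the Pearson and 0.167 for the Spearman value of CHS1, so neither passed 0.05. Correlations of single markers and the likeness search were not counted, so the adjustment does not cover the choice made after the values were seen. Each of the 5 markers had a negative r with CHS1 over the 6 arrays, from -0.97 for CAB6A to -0.82 for psaD. The epidermis markers LE16, ltpg1 and TSW12, described below, gave weaker values with CHS1 (r = -0.34, -0.050 and -0.22). With CHS2 their r was positive (0.41, 0.63 and 0.46).

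CAB4, a chlorophyll-binding protein gene shown as an example for its high correlation, stood at 9.63, 9.62 and 9.58 log2 units in drought fruits and at 9.60, 9.60 and 9.65 in control fruits. Its highest array, control replicate 3, had the lowest CHS1 value, and its lowest array, drought replicate 3, had the highest. CAB4 differed by -0.0030 ± 0.021 (SE) between drought and control (limma adjusted p = 0.960).

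**Figure D3:**
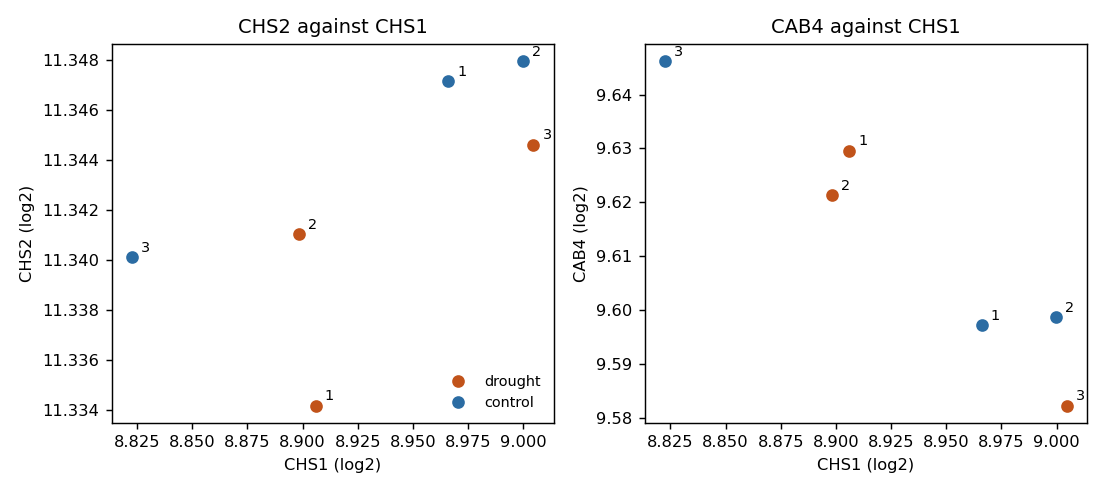
CHS2 (left) and the chlorophyll-binding protein gene CAB4 (right) against CHS1 in the 6 arrays (all axes log2 units, replicate numbers beside the points, colours for drought and control). CHS2 tends to be high on the arrays with high CHS1 (r = 0.67), CAB4 tends to be low on them (r = -0.96), and the groups overlap on every axis.

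By the same likeness rule used for DFR below, LOC778362 (r = -0.97), CAB4 (r = -0.96) and CAB5 (r = -0.93) were the named probe sets least like CHS1. The highest correlations with CHS1 were lower, at 0.83 for CYP1 and 0.78 and 0.77 for the 2 probe sets of adc1. These genes were also looked up after the values had been seen.

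Likeness to DFR was measured as Pearson's r over the 6 arrays among the 103 other named probe sets with a range of at least 0.05. Genes separated by group share that contrast with DFR, so r is given as a description. The closest was LOC543898 (r = 0.97), which the tables used here do not name further. It stood at 7.43, 7.57 and 7.53 log2 units in drought fruits, against 6.18, 6.20 and 6.79 in control fruits, with control replicate 3 again the highest control. The difference was 1.12 ± 0.20 (SE, limma adjusted p = 0.0696).

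The next in likeness were both probe sets of psi14B, the gene of an acid phosphatase known from phosphate-starved tomato cells (r = 0.97 and 0.96). The first of them stood at 6.58, 6.61 and 6.62 log2 units in drought fruits, against 6.49, 6.49 and 6.50 in control fruits. The difference was 0.11 ± 0.014 (SE, limma adjusted p = 0.0539), close in size to that of DFR. TBG7, a fruit beta-galactosidase gene (r = 0.95), and LOC543764 (r = 0.94) followed, with differences of 0.072 ± 0.0096 and 0.69 ± 0.14 (SE, limma adjusted p = 0.0539 and 0.0878). Of the 5 probe sets, 0 passed the threshold. Their separation by group follows from the choice by likeness to DFR and is not read as a result.

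The probe sets least like DFR were TDR8, a MADS-box gene (r = -0.99), NP24-I, an osmotin-like defence gene (r = -0.99), and LOC543989 (r = -0.96). TDR8 stood at 8.86, 8.88 and 8.87 log2 units in drought fruits, against 8.95, 8.97 and 8.94 in control fruits, a difference of -0.083 ± 0.0094 (SE, limma adjusted p = 0.0531). NP24-I differed by -0.42 ± 0.058 and LOC543989 by -0.047 ± 0.010 (SE, limma adjusted p = 0.0547 and 0.0960).

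**Figure D4:**
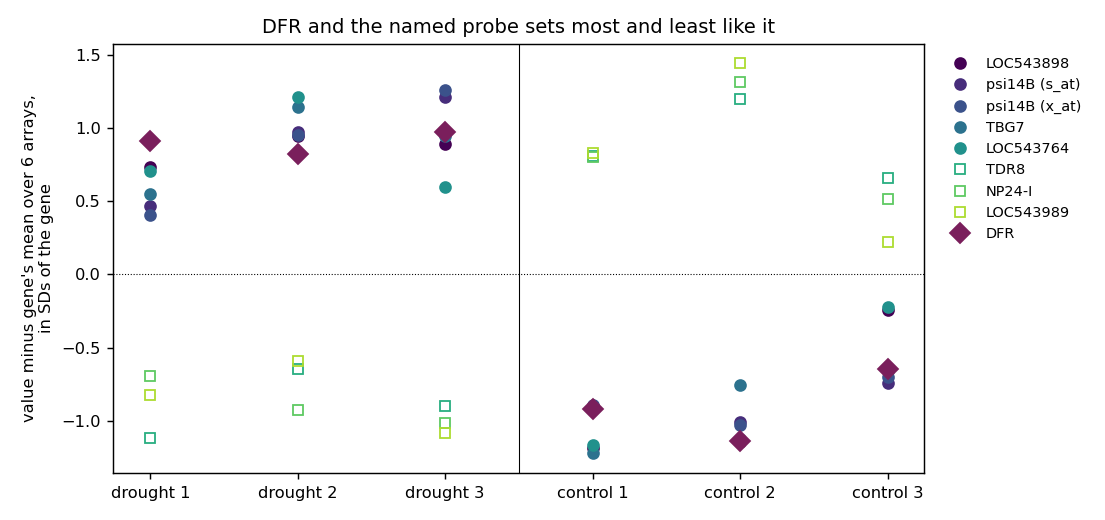
Values of DFR (diamonds), of the 5 named probe sets most like it (filled circles) and of the 3 least like it (open squares) in each array, as the distance from the gene's mean over the 6 arrays in SDs of that gene. The 3 drought arrays lie on one side of the mean and the 3 control arrays on the other for DFR and all 8 probe sets, and control replicate 3 lies nearest the mean among the controls for DFR.

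Further genes of the pathway were searched by 82 symbols, and 20 genes were found with 1 probe set each. Of these, 0 passed in limma in either direction, 6 had an unadjusted p under 0.05 (30.0% beside a background of 25% of all tested probe sets), 3 were higher and 5 lower in all drought arrays than in any control array (beside 20.5% higher and 14.3% lower of all tested probe sets), and 12 overlapped. Their median difference was 6.0e-07, against -1.1e-07 over all tested probe sets. In 13 of the 20 the range over the arrays was under 0.001. No gene was found under the symbols searched for the flavonoid and anthocyanin enzymes between or beside chalcone synthase and DFR (16 symbols, 0 genes), so DFR and the chalcone synthases are the enzymes of that branch described here, and genes known only by a locus number were not searched.

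Among regulators, 8 genes were found, 2 higher and 2 lower without overlap, beside 34.8% of all tested probe sets without overlap in either direction. MYB, listed in RefSeq also as THM18, encodes a MYB family protein. It stood at 6.488, 6.487 and 6.487 log2 units in drought fruits, against 6.477, 6.475 and 6.483 in control fruits, with control replicate 3 again nearest the drought arrays. The difference was 0.0091 ± 0.0024 (SE, limma adjusted p = 0.126). With control replicate 3 left out it was 0.0115 (limma adjusted p = 0.0369), and MYB was then the 1 pathway gene of 20 that passed, beside 5.41% of all tested probe sets (546 of 10101) in that setting. With any other single array left out, 0 of the 20 passed.

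HY5 encodes a bZIP factor that promotes light-induced genes, chalcone synthase among them in Arabidopsis. It stood at 7.58, 7.59 and 7.60 log2 units in drought fruits, against 7.65, 7.60 and 7.59 in control fruits, so the groups overlapped and control replicate 1 alone stood apart. The difference was -0.023 ± 0.019 (SE, limma adjusted p = 0.517). DET1 and DDB1 encode repressors of light responses whose tomato mutants have highly pigmented fruit, known as high pigment 2 and 1. DET1 differed by -3.9e-05 (limma adjusted p = 0.105) and DDB1, named here because it came nearest the threshold, by 5.1e-05 (limma adjusted p = 0.0598), both less than the largest spike-in range. THM27 (0.00025), THM6 (-6.9e-05) and THM16 (-0.00063) are MYB genes whose limma adjusted p ran from 0.213 to 0.912.

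In the general phenylpropanoid and lignin branch, 8 genes were found, 0 higher and 2 lower without overlap, beside the same 34.8%. TPx1 among them was matched to the listed symbol TPX1 with case ignored, and whether it is the gene meant was not checked. CCR1, whose symbol stands for cinnamoyl-CoA reductase of lignin synthesis, differed by 0.00099 ± 0.00051 (SE, limma adjusted p = 0.317). THT7-1 and THT7-8 encode tyramine hydroxycinnamoyl transferases, which make wall-bound phenolic amides. They differed by 0.00087 ± 0.00073 and -0.0013 ± 0.00045 (SE, limma adjusted p = 0.532 and 0.177). The other gene without overlap, CEVI-1, a peroxidase gene, differed by -2.0e-06.

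In the shikimate pathway, which supplies phenylalanine, 4 genes were found and all ranged over less than 0.001. The chorismate synthase genes CS1 and CS2 differed by 0.00012 (limma adjusted p = 0.143) and -1.3e-05 (limma adjusted p = 0.153) without overlap of the groups, beside 34.8% of all tested probe sets. The shikimate kinase gene SK differed by 0.00011 with overlap (limma adjusted p = 0.428). These differences lay under the largest spike-in range. The 8 pathway genes not taken by the naming rule, DDB1 and CEVI-1 among them, differed by -3.3e-06 to 5.1e-05.

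**Figure D5:**
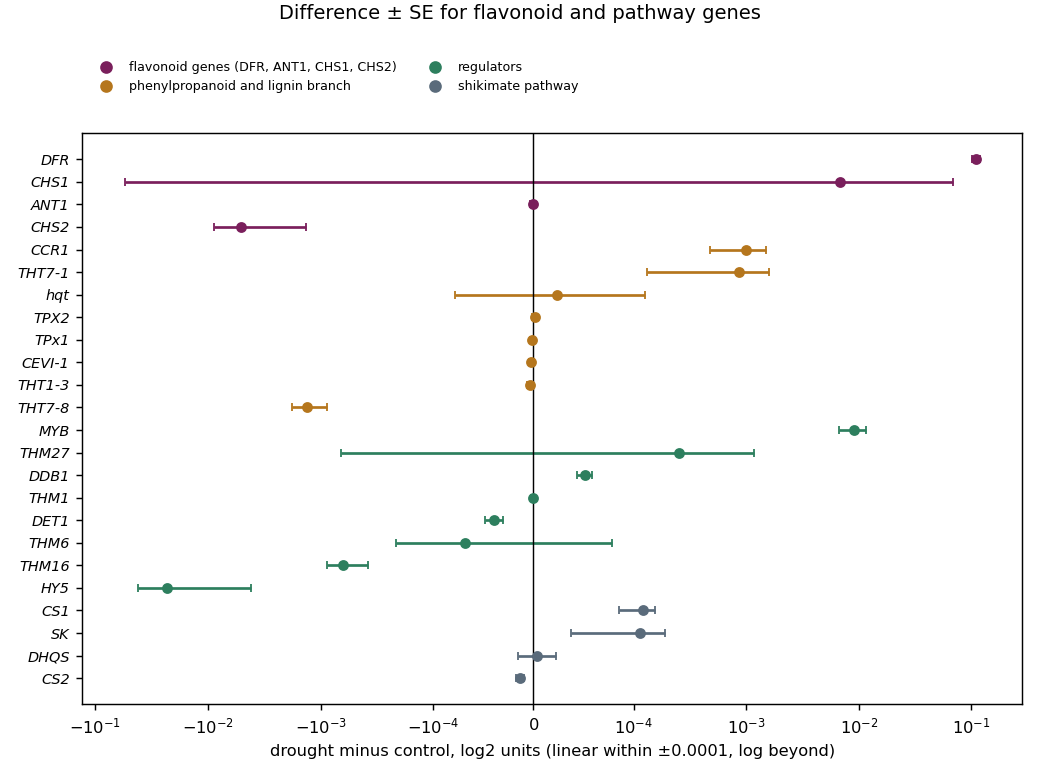
Difference between drought and control (mean drought minus mean control, log2 units, bars ± SE from limma, axis linear within ±0.0001 and logarithmic beyond) for DFR, CHS1, ANT1 and CHS2 and for the 20 other pathway genes by role. DFR at 0.11 lies farthest from 0, followed by HY5 at -0.023 and MYB at 0.0091.

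Flavonoids and anthocyanins gather in the outer cell layers of the fruit, so markers of the epidermis were read beside DFR. Of 11 symbols searched, 3 genes were found, the lipid transfer protein genes LE16, TSW12 and ltpg1, between the 35.05th and the 94.85th percentile of an array's values. Their summed level was 4480.8 to 4500.8 in drought, against 4501.4 to 4516.2 in control. It was lower in every drought array, but the highest drought sum (4500.8) and the lowest control sum (4501.4) almost met. TSW12 differed by -0.020 ± 0.0033 and ltpg1 by -0.0051 ± 0.0013 (SE, limma adjusted p = 0.0636 and 0.123), both without overlap of the groups (beside 34.8% of all tested probe sets), and LE16 differed by -0.0052 with overlap (limma adjusted p = 0.429). Of the 3, 0 passed, and their part in the difference of DFR was not tested. Ripe-fruit markers (7 of 10 symbols found) summed to 5217.7 to 5229.7 in drought and 5221.5 to 5272.3 in control, with overlap. Of their 9 probe sets, 0 passed, and 3 were lower and 0 higher in every drought array than in any control array, beside 14.3% lower and 20.5% higher of all tested probe sets. RIN, a MADS-box ripening regulator, was one of the 3, at 5.934, 5.943 and 5.947 log2 units in drought fruits, against 6.201, 6.039 and 6.005 in control fruits, a difference of -0.14 ± 0.058 (SE, limma adjusted p = 0.232). The others were PG2 (-2.1e-06) and 1 of the Psy1 probe sets (-4.8e-05), both differing by less than the largest spike-in range of 0.000467. The remaining Psy1 probe sets overlapped. The part of these ripe-fruit markers in the difference of DFR was not tested. For vascular tissue only TPx1 was found (1 of 3 symbols), at a sum of 7774.4 in every array. TPx1 was matched by symbol with case ignored and is no sure vascular marker. The 1 symbol found for seed, SBT1, belongs to a subtilase gene and is no sure seed marker.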

How the data were processed

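Total RNA of mature green fruit was labelled with biotin from 100 ng per sample, per the labels' protocols, and hybridised to 1-colour arrays. The deposited values are probe set summaries made by the authors and were read as log2 values, since they run from 5.457 to 15.83; how background, scaling and summary were handled is not given in the sources used. Arrays were grouped by their titles. Of 10209 probe sets, the array maker's 108 control probe sets were left out and 10101 were tested. Gene symbols came from the platform annotation and synonyms from a RefSeq gene table (assembly SLM_r2.1), and no coordinates are given because the array's build is not named.

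Drought was compared with control with limma 3.58.1 in R 4.3.3 (lmFit and eBayes, two-sided, Benjamini-Hochberg over all tested probe sets, threshold 0.05, no block, no filter). On simulated arrays of 10101 probe sets with 200 changed for drought against control, the procedure found 46 of the 50 smallest changes (0.01 log2 units), 47 at 0.1, 49 at 1 and 50 at 2, and made 10 false calls. The changed probe sets were drawn at random with normal noise at their own SD, and 75.71% of all tested ones ranged under 0.001. These rates therefore do not hold for probe sets that vary more, such as CHS1 (SE 0.061), and do not show that a change there was absent. The noise was drawn independently for each probe set, so a deviation shared by a whole array was not simulated. The 10 false calls are therefore no error rate for these data. Correlations across the 6 arrays were tested by exact permutation (720 orders, two-sided). The members and gene lists were chosen with earlier results of these data known. The rule for names took every member, 12 of the other pathway genes found (the 6 highest and the 6 lowest differences), the named probe sets most like DFR (5 by the highest and 3 by the lowest Pearson correlation, range at least 0.05) and the 2 named probe sets nearest the threshold on each side. The listed symbol CHI3 was left out because it names a chitinase gene here.

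Alternatives were quantile normalisation, equal array medians (centring), a filter on the dimmest 30%, array weights, a replicate block, unmoderated variances, a trended robust prior, values averaged by gene, unadjusted p-values and each array left out in turn. The number of arrays limits the precision.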

Additional observations from a re-analysis of the deposited data

How the results depend on the processing

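In limma, 77 probe sets passed as deposited, 53 higher and 24 lower. The count was 0 after quantile normalisation (2966 at an unadjusted p under 0.05), 9406 after centring (214 higher, 9192 lower), 391 with array weights, 7 with unmoderated variances, 2524 at an unadjusted p, and 0 to 546 without single arrays. Of DFR, ANT1, CHS1 and CHS2, 1 passed as deposited, 0 after quantile normalisation, without the dimmest probe sets (where DFR and ANT1 had no value) or with unmoderated variances, 3 after centring, and 0 to 1 without single arrays. Of the 20 other pathway genes, 0 passed as deposited, 18 after centring (all lower), 6 at an unadjusted p, and 0 to 1 without single arrays. After centring, ANT1 stood at -0.0055 and CHS2 at -0.011, and after quantile normalisation CHS2 stood at -0.018. Centring moves every probe set by the difference between the array medians (0.0055), far more than most probe sets varied. The difference of DFR was 0.10 to 0.12 and that of CHS1 -0.047 to 0.042 without single arrays, ANT1 ran from -1.7e-06 to 2.2e-07 and CHS2 from -0.0076 to -0.0023. With the replicate block, 0 of all probe sets passed (1752 at an unadjusted p under 0.05) and 0 of the 4 genes. Deviations of arrays with the same number correlated at -0.092, -0.023 and -0.11, so the numbers were not taken to pair the samples. Background correction and slide could not be varied from these values. Causes of these changes were not tested. Very low signals, as for ANT1, limit what can be seen.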
